A study of Mus musculus with 4 samples.

Results

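Guanine deaminase (Gda) and 9 other enzymes of purine salvage and breakdown were followed in mouse tumour cells with and without Smarcb1, a tumour suppressor of rhabdoid tumours that belongs to the SWI/SNF complex, a remodeller of chromatin. The genes are Gda, Xdh, Pnp, Ada, Ampd2, Ampd3 and Nt5e on the breakdown side and Hprt, Aprt and Adk on the salvage side. Gda was chosen by its measured change, as 1 of 9 genes that passed the comparison of Smarcb1 with empty vector in these same arrays, so its increase is a description here and carries no test. The others were added as enzymes of the same pathway. All 10 had exactly 1 probe set annotated to them alone, out of 19938 genes with such a probe set, and all 10 were among the 13956 genes tested.

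The cells were lines 365 and 167, each grown from a soft tissue tumour that had lost Smarcb1 in a p53-null, Smarcb1-heterozygous mouse of C57BL6/SV129J background. A pMIG retrovirus brought Smarcb1 into the cells, empty pMIG served as the control of each line, and total RNA was taken after 3 days. All 4 arrays thus share the loss of p53 and a retroviral infection, and the empty-vector cells are the Smarcb1-deficient state. Each combination of line and vector is a single array, each line comes from 1 tumour, and the labels mention no repeat cultures, so the only replication is between the 2 lines.

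Purine bases are costly to make and cells both recycle and degrade them. The AMP deaminases (Ampd2, Ampd3) turn AMP into IMP, the cell-surface nucleotidase Nt5e releases adenosine from AMP outside the cell, and adenosine deaminase (Ada) makes inosine from it. Purine nucleoside phosphorylase (Pnp) frees hypoxanthine and guanine from their nucleosides, Gda deaminates guanine to xanthine, and xanthine dehydrogenase (Xdh) oxidises hypoxanthine and xanthine to urate. On the other side Hprt returns hypoxanthine and guanine to IMP and GMP, Aprt returns adenine to AMP, and adenosine kinase (Adk) returns adenosine to AMP. Guanine therefore stands at a branch between Hprt and Gda, and in neurons the Gda protein, also called cypin, is known as a partner of the synaptic scaffold protein encoded by Dlg4.

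The start regions of Gda and Ampd2 are shown because these 2 genes had the largest positive and the largest negative mean change among the 10. Both come from RefSeq on build GRCm38.p6 and run from 250 bases before to 50 bases after an annotated start. Gda lies on chr19:21472612-21472911 (minus strand) and Ampd2 on chr3:108085353-108085652 (minus strand). Capitals mark matches to 5 motifs searched on both strands, which were TGANTCA (AP-1), CACGTG (E-box), GGGCGG (the GC box), TATAAA (the TATA box) and CCAAT (the box bound by the factor NF-Y).
Gda: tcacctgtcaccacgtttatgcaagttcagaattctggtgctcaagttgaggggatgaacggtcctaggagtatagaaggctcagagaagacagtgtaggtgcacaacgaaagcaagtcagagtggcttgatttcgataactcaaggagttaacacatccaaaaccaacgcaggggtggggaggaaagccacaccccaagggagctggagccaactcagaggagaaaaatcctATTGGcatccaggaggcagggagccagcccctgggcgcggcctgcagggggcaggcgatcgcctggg
Ampd2: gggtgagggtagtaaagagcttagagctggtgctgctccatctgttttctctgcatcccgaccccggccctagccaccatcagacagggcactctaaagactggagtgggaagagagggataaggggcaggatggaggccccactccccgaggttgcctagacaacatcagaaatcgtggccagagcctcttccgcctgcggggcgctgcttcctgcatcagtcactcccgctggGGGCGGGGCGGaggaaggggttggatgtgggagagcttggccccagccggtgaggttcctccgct
The Gda region held 1 NF-Y box, read on the opposite strand as ATTGG, and matched none of the other 4 motifs. The Ampd2 region held 2 overlapping GC boxes and no other match. Of 32851 start regions in the table, 37.4% held an NF-Y box, 35.7% a GC box, 13.6% a TATA box, 7.81% an AP-1 site and 7.15% an E-box. Start regions were found for 9 of the 10 genes (13 regions, since Ampd2, Ampd3 and Adk have several starts), and those of Hprt, Nt5e and the upstream start of Adk held 3, 4 and 4 GC boxes. The Gda region contained 9 CpG dinucleotides, against a median of 7 over all start regions, whereas the Hprt region contained 22 and the Nt5e region 23. Which start these cells use was not measured, and a match of letters is not evidence of a bound site.

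The arrays give log2 signals of probe sets, normalized together by the authors with RMA. Smarcb1 itself measured 9.61 and 7.83 in lines 365 and 167 with the Smarcb1 virus, and 6.01 and 4.61 with empty virus, so the vector labels match its signal. The mesenchymal marker Vim measured between 13.27 and 13.53 on the 4 arrays, while Epcam, Ptprc and Pecam1, which mark epithelial cells, leukocytes and endothelium, were at 4.35 or below. The other 5 epithelial markers were tested, Cdh1, Krt5 and Krt14 at 5.05 or below, Krt18 between 5.25 and 5.64 and Krt8 between 5.63 and 6.04. Adgre1 and Itgam, 2 further leukocyte markers, were at 3.89 or below, but the lysosomal leukocyte marker Cd68 measured 8.18 with Smarcb1 and 9.95 with empty vector in line 365, and 8.69 with Smarcb1 and 9.32 with empty vector in line 167, and its part in the results was not tested. Of the 7 mesenchymal markers 4 were higher with Smarcb1 in both lines and 0 passed. Their median log2 change was 0.034 in line 365 and 0.97 in line 167. In line 167 Col1a1 gave 2.65, Col1a2 1.74, Thy1 1.30, Pdgfra 0.97, Col3a1 0.53, Pdgfrb 0.42 and Vim -0.22. These markers changed in line 167 in the same contrast as Gda below, and their part in the results was not tested. The lines themselves also differed in lineage markers. The endothelial cadherin gene Cdh5 measured 8.29 and 9.06 in line 365 with Smarcb1 and with empty vector, against 3.64 and 3.78 in line 167. Other endothelial markers were low in both lines, with Kdr between 4.33 and 4.80 and Tek and Emcn at 3.98 or below. Whether line 365 has an endothelial character was not tested. Of 2 tested endothelial markers 1 was higher in line 365 at the limma threshold and 0 lower, and of 7 tested mesenchymal markers 0 were higher and 3 lower, among them Col3a1 and Pdgfrb. Genes whose mean over the arrays was under 4.27 (the 30th percentile) were left untested. A signal near or under that level is dim and was not shown to exceed background.

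Gda was much higher with Smarcb1 in both lines. Its signal was 7.73 with Smarcb1 and 4.16 with empty vector in line 365, and 7.55 with Smarcb1 and 4.40 with empty vector in line 167. Both Smarcb1 arrays stood at least 3 log2 units above both empty-vector arrays, and the groups did not overlap. The change was 11.9-fold in line 365 and 8.92-fold in line 167, with a mean log2 change of 3.36 ± 0.29 (SD, n = 2 lines). In RNA of a whole culture, more cells with Gda transcript and more transcript per cell cannot be told apart. By mean change Gda ranked 15th from the top of the 13956 tested genes. Its empty-vector signals lay on either side of the 4.27 level, so the starting point, and with it the size of the fold change, is uncertain. The line 365 arrays and the line 167 arrays were alike in Gda, with a difference of 0.17 with Smarcb1 and -0.24 with empty vector.

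**Figure D1:**
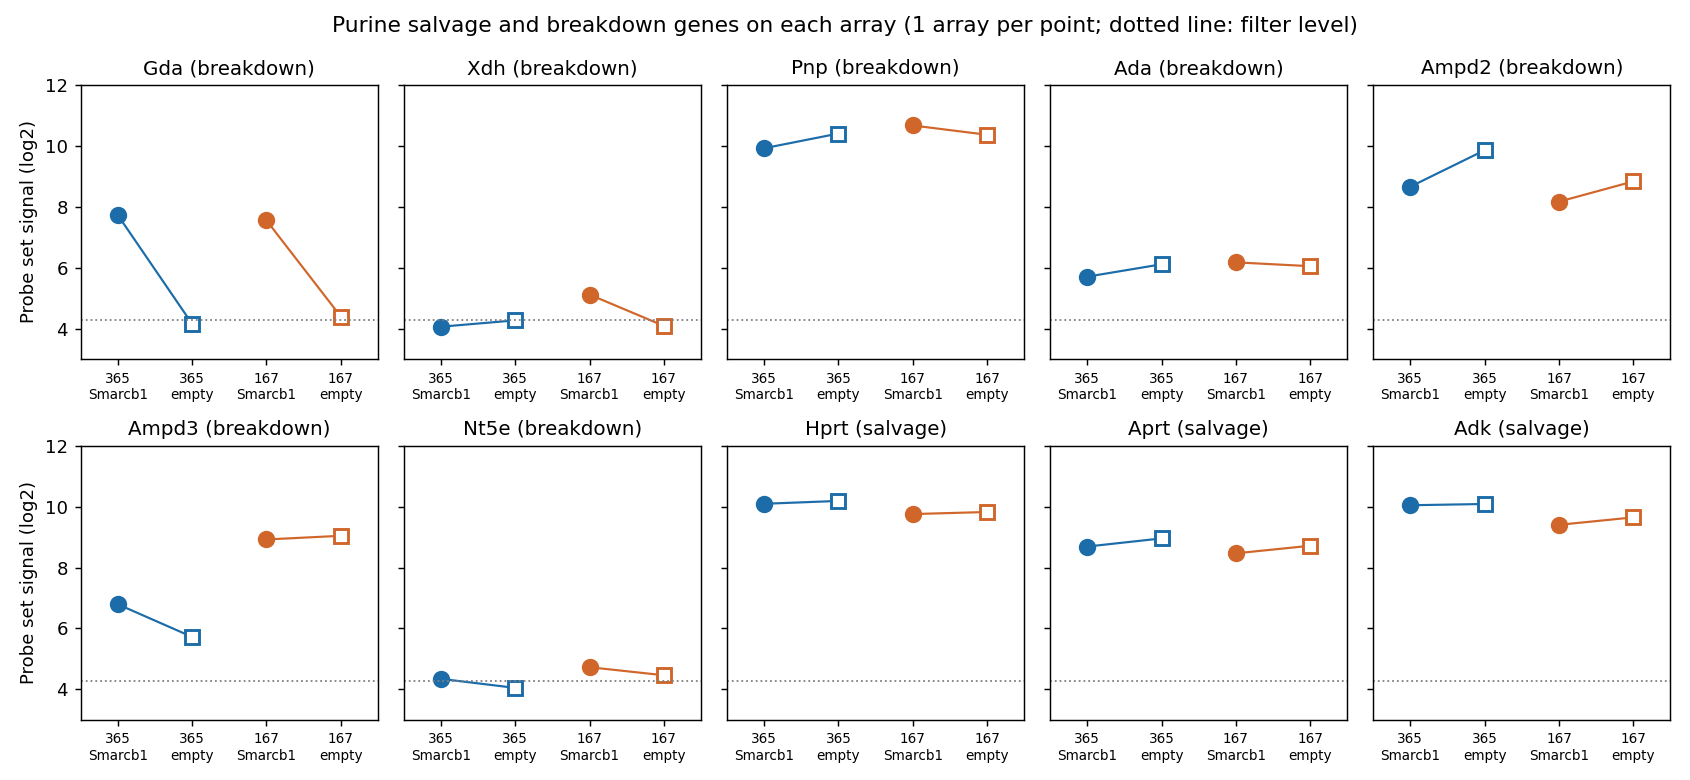
Log2 probe set signal of each of the 10 genes on each array, with lines 365 (blue) and 167 (orange), Smarcb1 as filled circles and empty vector as open squares, and the filter level of 4.27 as a dotted line. Gda stands at 7.73 and 7.55 with Smarcb1 and near the dotted line with empty vector, Ampd3 separates the lines, and Hprt, Aprt and Adk are nearly flat.

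None of the other 9 enzymes passed the limma fit of Smarcb1 against empty vector, which carried cell line as a second term (Benjamini-Hochberg adjusted p over all tested genes, threshold 0.05). In that fit 0.0645% of tested genes were called higher and 0% lower, and Gda, for which the set was formed, was the 1 member among them. Before adjustment, 11.6% of all tested genes and 1 of the 9, Ampd2, had a limma p under 0.05. The median log2 change of the 9 was -0.21 in line 365 and -0.068 in line 167, beside -0.0059 and -0.055 over all tested genes. Of the 9, 1 was higher in both lines (26% of all tested genes), 4 were lower in both (34.1%) and 4 had opposite signs (39.8%), among them Xdh, whose line 365 signals were too dim to order.

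Of the 2 AMP deaminases, Ampd2 was lower with Smarcb1 in both lines and Ampd3 was not. Ampd2 measured 8.66 with Smarcb1 and 9.86 with empty vector in line 365, and 8.17 with Smarcb1 and 8.83 with empty vector in line 167. Within each line the Smarcb1 array was the lower one, but the line 167 control, at 8.83, was close to the line 365 Smarcb1 array. Its mean log2 change was -0.93 ± 0.38 (SD, n = 2 lines; limma adjusted p = 0.201), that is, 2.29-fold lower in line 365 and 1.58-fold lower in line 167. At least 2-fold lower were 1.17% of tested genes in line 365, with Ampd2 the 1 member, and 1.49% in line 167, with 0 members. By mean change Ampd2 stood 115th from the bottom of the 13956 genes.

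Ampd3 measured 6.79 with Smarcb1 and 5.72 with empty vector in line 365, and 8.92 with Smarcb1 and 9.04 with empty vector in line 167. It was 2.10-fold higher with Smarcb1 in line 365, where 2.84% of tested genes were at least 2-fold higher, and differed by -0.12 in line 167. The mean log2 change was 0.48 ± 0.84 (SD, n = 2 lines; limma adjusted p = 0.619). The spread between the lines exceeded the mean change.

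Pnp and Ada had changes of opposite sign in the 2 lines, as did 39.8% of all tested genes. Pnp, which releases guanine and hypoxanthine, measured 9.92 with Smarcb1 and 10.4 with empty vector in line 365, and 10.7 with Smarcb1 and 10.4 with empty vector in line 167. Its log2 changes were -0.48 and 0.30, and the nearby paralog Pnp2 could share probes with it, so its signal may hold both. Ada, which deaminates adenosine, measured 5.70 with Smarcb1 and 6.11 with empty vector in line 365, and 6.17 with Smarcb1 and 6.05 with empty vector in line 167. For Pnp and for Ada the controls of both lines were almost level, and the Smarcb1 arrays lay below them in line 365 and above them in line 167. Neither passed (limma adjusted p = 0.90 for Pnp and 0.839 for Ada), and no test exists for whether the lines responded differently, as each line has 1 array per vector.

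Xdh, the enzyme that turns the xanthine made by Gda into urate, measured 4.06 with Smarcb1 and 4.27 with empty vector in line 365, and 5.12 with Smarcb1 and 4.09 with empty vector in line 167. The line 167 Smarcb1 array was the single one above the filter level, at 2.04-fold its control, where 3.4% of tested genes were at least 2-fold higher. The other 3 arrays were too dim to order. The mean log2 change was 0.41 ± 0.87 (SD, n = 2 lines; limma adjusted p = 0.661). Its change of -0.21 in line 365 lies between signals at or under the filter level and has no readable sign.

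Nt5e, which makes extracellular adenosine, was dim throughout. It measured 4.34 with Smarcb1 and 4.05 with empty vector in line 365, and 4.73 with Smarcb1 and 4.46 with empty vector in line 167. The 2 changes were alike, with a mean of 0.28 ± 0.023 (SD, n = 2 lines; limma adjusted p = 0.508), but the mean signal of the gene exceeded the filter level by only 0.12.

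The 3 salvage enzymes had small changes. Hprt, the enzyme that competes with Gda for guanine, measured 10.1 with Smarcb1 and 10.2 with empty vector in line 365, and 9.75 with Smarcb1 and 9.82 with empty vector in line 167. Its mean log2 change was -0.081 ± 0.019 (SD, n = 2 lines; limma adjusted p = 0.826). Aprt measured 8.69 with Smarcb1 and 8.96 with empty vector in line 365, and 8.47 with Smarcb1 and 8.71 with empty vector in line 167. Both lines thus gave nearly the same Aprt change, -0.26 ± 0.013 on average (SD, n = 2 lines; limma adjusted p = 0.562). Adk measured 10.04 with Smarcb1 and 10.09 with empty vector in line 365, and 9.40 with Smarcb1 and 9.65 with empty vector in line 167. Its mean change was -0.14 ± 0.14 (SD, n = 2 lines; limma adjusted p = 0.719). All 3 were lower with Smarcb1 in both lines, by at most 0.27 on the log2 scale, and SDs of 2 values are themselves imprecise.

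**Figure D2:**
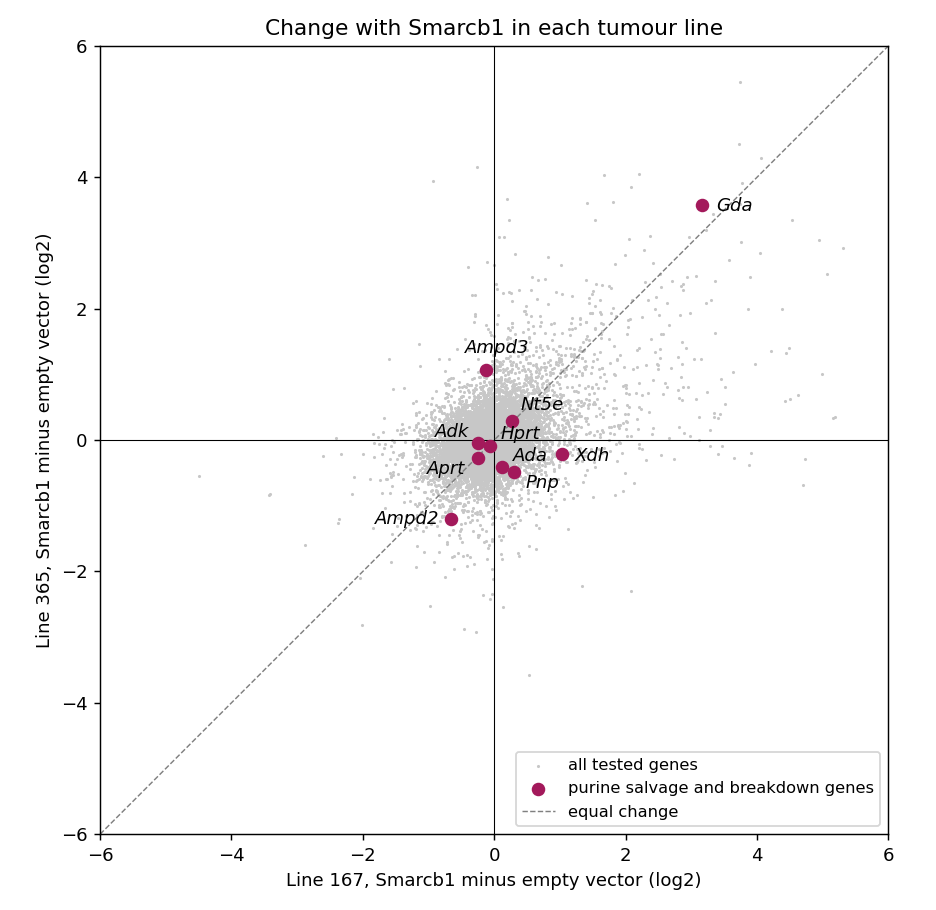
Log2 change with Smarcb1 in line 167 (horizontal) and in line 365 (vertical) for all 13956 tested genes in grey and for the 10 purine genes in purple, with the dashed line marking equal change. Gda sits far out near the dashed line, at 3.57 in line 365 and 3.16 in line 167, Ampd2 lies below 0 in both lines, and Xdh and Ampd3 each lie beyond 1 in a single line.

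The lines were also compared with each other over both vectors, a contrast that did not enter the choice of Gda. Each line is 1 tumour and its 2 arrays differ by vector, so these p-values measure no spread between tumours or cultures. In the limma fit 10.9% of tested genes differed between line 365 and line 167 (5.31% higher and 5.64% lower in line 365), and 1 of the 10 purine genes did, a share near that background. That gene was Ampd3, which is also known as the red cell isoform of AMP deaminase. Its log2 difference, line 365 minus line 167, was -2.13 with Smarcb1 and -3.32 with empty vector. The fitted difference was -2.72 ± 0.32 (moderated SE; limma adjusted p = 0.0155), or 6.61-fold lower in line 365. Both line 365 arrays lay more than 2 log2 units below both line 167 arrays. The fitted difference stood at percentile 0.577 of all tested genes, counted from the lowest. The lineage markers named above, such as Cdh5 and Col3a1, moved with the same contrast, and their part in it was not tested. Smarcb1 itself was higher in line 365 too, by 1.78 with Smarcb1 virus and 1.40 with empty virus (limma adjusted p = 0.0177). The part of Smarcb1 level in the line differences was not tested either.

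Ampd2, the isoform found in most tissues, stood the other way, higher in line 365 by 0.49 with Smarcb1 and by 1.02 with empty vector. Its fitted difference was 0.76 ± 0.19 (moderated SE) and did not pass (limma adjusted p = 0.070). Adk was higher in line 365 by 0.64 with Smarcb1 and by 0.44 with empty vector (fit 0.54 ± 0.13, moderated SE; limma adjusted p = 0.0676). With the filter set at the 50th percentile both passed, with limma adjusted p = 0.0458 for Ampd2 and 0.0487 for Adk. Xdh and Nt5e were not tested under that filter, and 3 members in all, Ampd2, Adk and Ampd3, were past the threshold. Over all genes 1939 passed there, out of fewer tested, against 1528 in the main fit, so the background share was larger too.

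The other salvage enzymes leaned the same way without passing. Hprt was higher in line 365 by 0.34 with Smarcb1 and 0.36 with empty vector (limma adjusted p = 0.131), and Aprt by 0.22 with Smarcb1 and 0.24 with empty vector (limma adjusted p = 0.351). Nt5e gave -0.38 with Smarcb1 and -0.41 with empty vector (limma adjusted p = 0.126). Pnp, Ada and Xdh differed between the lines mainly on the Smarcb1 arrays, by -0.75, -0.47 and -1.05, against 0.040, 0.062 and 0.18 on the empty-vector arrays. The line difference was positive under both vectors in 4 of the 10 genes (34.9% of all tested genes), negative under both in 2 (37.5%) and of opposite sign in 4 (27.5%). Gda did not pass either, with a fitted line difference of -0.033 ± 0.21 (moderated SE; limma adjusted p = 0.938).

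**Figure D3:**
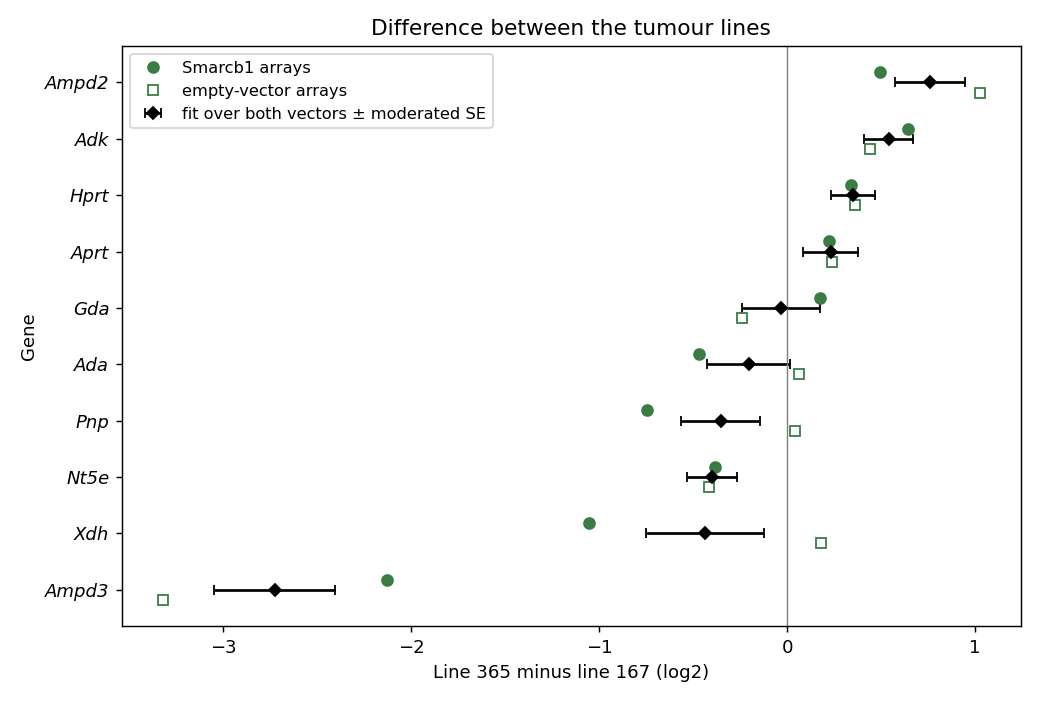
Log2 signal of line 365 minus line 167 for each of the 10 genes, on the Smarcb1 arrays (filled circles), on the empty-vector arrays (open squares) and in the fit over both vectors (black diamonds with moderated SE). Ampd3 stands alone at -2.72, and for Pnp, Ada, Xdh and Gda the 2 vectors fall on opposite sides of 0.

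The rest of the pathway was read from a list of 85 genes in 12 role groups, of which 72 matched a probe set of their own and 59 were tested. In the limma fit of Smarcb1 against empty vector 0 of the 59 passed, with 11 (18.6%, against 11.6% of all tested genes) at a p under 0.05 before adjustment and a smallest adjusted p of 0.124. Higher in both lines were 16, lower in both 23, and of opposite sign 20, where all tested genes gave 26%, 34.1% and 39.8%. Their median log2 change was -0.11 in line 365 and -0.085 in line 167, beside -0.0059 and -0.055 over all tested genes. The same shares and medians of all tested genes stand behind each role group below, and groups of 2 to 9 genes are too small to be set apart from them by such counts.

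The gene of smallest p was Ak1, an adenylate kinase that interconverts the adenine nucleotides. It measured 6.92 with Smarcb1 and 5.53 with empty vector in line 365, and 8.28 with Smarcb1 and 6.08 with empty vector in line 167. It was the 1 gene of the list at least 2-fold higher in both lines, as were 1.33% of all tested genes (log2 changes 1.40 and 2.20; limma adjusted p = 0.124). Of the 7 tested adenylate and deoxynucleoside kinases, 3 were higher in both lines and 1 lower in both, and 0 passed.

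The 8 genes of de novo purine synthesis had median log2 changes of -0.36 in line 365 and -0.14 in line 167, with 4 lower in both lines, 1 higher in both and 0 past the limma threshold. Ppat, the enzyme of the committed step, gave -0.64 in line 365 and -0.24 in line 167 (limma adjusted p = 0.419). Among the 4 genes that take IMP to AMP or GMP, the muscle-type adenylosuccinate synthase gene Adssl1 gave 0.53 and 1.35 (limma adjusted p = 0.313), and 2 of the 4 were higher in both lines. Pyrimidine genes, taken as a neighbouring pathway, had medians of -0.43 and -0.31, with 6 of 8 lower in both lines and 0 past. Of those 6, 3 were the synthesis genes Cad, Umps and Dhodh and 3 were salvage kinases, and the breakdown genes Dpyd, Dpys and Upb1 had means below the filter level and were not tested. The uridine-cytidine kinase gene Uck1 gave -0.56 and -0.62 there (limma adjusted p = 0.295).

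Genes around Xdh were read next. Mocos, which encodes the sulfurase that activates the molybdenum cofactor of Xdh and of aldehyde oxidase, gave -0.89 in line 365 and -0.97 in line 167 (limma adjusted p = 0.203). It belonged to a group of 9 other deaminase and breakdown genes with medians of -0.34 and -0.30, of which 5 were lower and 1 higher in both lines and 0 passed. Uox, which degrades urate in mice, was at 3.52 or below on all arrays and was not tested. The 3 urate transporter genes were higher in both lines and 0 passed. In line 365 Slc2a9 and Slc22a12 hardly changed, by 0.027 and 0.0084, against 0.64 and 0.17 in line 167. The exporter gene Abcg2 gave 0.16 and 0.72 (limma adjusted p = 0.486).

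Transporters, nucleotidases and binding partners completed the list. Slc29a2, an equilibrative nucleoside transporter gene, gave -1.26 in line 365 and -0.011 in line 167 (limma adjusted p = 0.542), and of its group of 5 tested genes 1 was higher and 2 lower in both lines, with 0 past. Among 4 tested ecto-nucleotidase genes 2 were higher and 1 lower in both lines and 0 passed, and Entpd2 gave 0.25 and 0.23 (limma adjusted p = 0.589). Of 6 tested cytosolic nucleotidase genes, a group that includes the dNTP hydrolase gene Samhd1 (0.21 and 0.53; limma adjusted p = 0.46), 3 were higher and 2 lower in both lines and 0 passed. The 3 tested genes of methylthioadenosine and adenosylhomocysteine handling had 2 lower in both lines and 0 past, with Ahcyl2 at -0.19 and -0.36 (limma adjusted p = 0.566). In the group drawn as Gda binding partners, Dlg4 and Cript had opposite signs in the 2 lines and 0 passed. Of these only Dlg4 is described above as encoding a Gda partner, and for Cript no such role was established here. The group of adenosine receptors and deaminase partners had 0 tested genes.

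**Figure D4:**
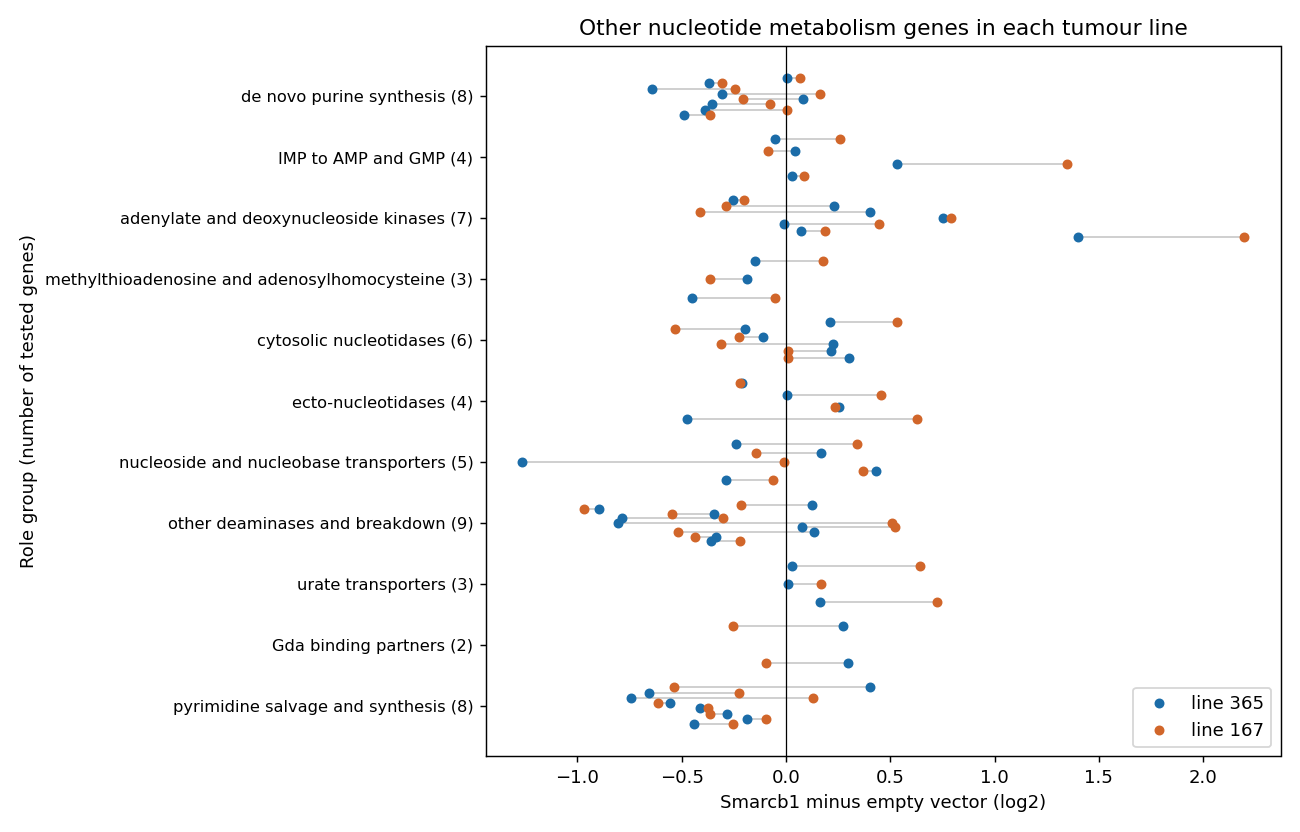
Log2 change with Smarcb1 of the 59 other tested nucleotide metabolism genes by role group, with a blue point for line 365 and an orange point for line 167 joined for each gene. The point pair furthest to the right is Ak1 at 1.40 and 2.20, and the lowest single value is Slc29a2 in line 365 at -1.26.

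Between the lines, 8 of the 59 list genes differed in the limma fit (13.6%, against 10.9% of all tested genes), 4 higher and 4 lower in line 365. Higher in line 365 were Slc29a2 by log2 1.91 ± 0.34 and the cytidine deaminase gene Cda by 1.74 ± 0.35 (moderated SE). So were the IMP dehydrogenase gene Impdh1 by 0.91 ± 0.19 and Cad, which begins pyrimidine synthesis, by 0.80 ± 0.15 (moderated SE). Lower in line 365 were the aldehyde oxidase gene Aox1 at -1.52 ± 0.21, Adssl1 at -1.40 ± 0.26, Samhd1 at -1.11 ± 0.15 and the nucleotidase gene Nt5c2 at -0.83 ± 0.16 (moderated SE). Their limma adjusted p-values lay between 0.0214 and 0.0497.

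The genes whose 4 signals followed Gda most closely were Prss23, Phldb2, Nrp1, Efnb2 and Plpp3. Likeness was the Euclidean distance between the log2 signals of the 4 arrays after each gene was centred on its own mean, and the distances were 0.16, 0.57, 0.60, 0.66 and 0.72, against a median of 3.44 over all tested genes. Prss23, a secreted serine protease gene, measured 7.98 with Smarcb1 and 4.54 with empty vector in line 365, and 8.02 with Smarcb1 and 4.69 with empty vector in line 167. Plpp3, a lipid phosphate phosphatase gene, measured 9.55 with Smarcb1 and 6.44 with empty vector in line 365, and 9.53 with Smarcb1 and 7.16 with empty vector in line 167. Prss23, Phldb2, Nrp1 and Efnb2 also passed the comparison of Smarcb1 with empty vector by which Gda was chosen, and Plpp3 did not. As 4 points were compared and Gda had been chosen for its large shift, these neighbours are a description.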

How the data were processed

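RNA of 4 samples was measured on whole-transcript arrays. The deposited values are log2 signals per probe set, which the authors computed in Affymetrix Expression Console by RMA (source: the submitters' processing notes). RMA corrects background, quantile-normalizes arrays and combines probes, so a change of total RNA per cell cannot be seen. No software version or setting is given in the sources used here. Of 35556 probe sets, 21789 have 1 gene symbol in the platform annotation, 1621 several, and 12146 are not listed and stay unnamed. The probe set with the highest mean stood for each gene, and genes below the 30th percentile of means (4.27) were left out. The log2 values were fitted with limma 3.58.1 in R 4.3.3 (terms for cell line and vector, eBayes with an intensity trend), with two-sided p-values adjusted by Benjamini-Hochberg over 13956 genes at 0.05. The residual has 1 degree of freedom, the gap between the responses of the lines, and eBayes added 3.75. Groups were taken from the transfection label. Pairing follows from the shared cell line (correlation of deviations 0.77). P-values rest on the gap between the responses of the lines, moderated over all genes, and measure no spread between repeat cultures. The number of arrays limits the precision. The fit was tested on simulated data with the same vector effect in both lines, so that test did not cover line-specific responses.

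The members, role lists and motifs were chosen with earlier results of these data known. Named genes were the 10 members, in each role group those at least 2-fold changed the same way in both lines or else the largest mean change, up to 3 line differences per group, and the 5 genes nearest to Gda. Alternatives covered the filter, scaling, moderation, probe set choice, model terms and single lines. Start regions came from RefSeq (GRCm38.p6).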

Additional observations from a re-analysis of the deposited data

Results flagged for a closer look

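In 4 of the 10 enzymes, and in 4 further genes named from the pathway list, the change with Smarcb1 had opposite signs in the 2 lines. Opposite signs occurred in 39.8% of all tested genes, and the difference between the lines was not tested, since each line has 1 array per vector. The log2 change in line 365 minus that in line 167 was -1.24 for Xdh (-0.21 and 1.03), -0.79 for Pnp (-0.48 and 0.30), -0.53 for Ada (-0.41 and 0.13) and 1.19 for Ampd3 (1.07 and -0.12). Both Xdh signals of line 365 were at or under the filter level, so its sign there is not readable. It was -1.32 for Cda (-0.80 and 0.51), 0.39 for Cript (0.30 and -0.094), 0.53 for Dlg4 (0.27 and -0.26) and -0.31 for Impdh1 (-0.052 and 0.26).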

How the results depend on the processing

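The mean Gda change, 3.36 in the main fit, was 3.37 after quantile normalization and 3.38 after cyclic loess. RMA had already quantile-normalized the arrays, so these scalings test the value little. Gda has 1 probe set, so the choice of probe set could not change it. The change was 3.57 without line 167 and 3.16 without line 365. Without the cell line as a replicate block 0 members and 0 genes passed the limma test, so the pass by which Gda was chosen ended, and 450 genes had an unadjusted p below 0.05, 1 of them a member. The count of genes past the limma test of Smarcb1 against empty vector was 9, and became 48 after quantile normalization, 49 after cyclic loess, 68 with all genes kept and 101 with the filter raised to the 50th percentile. The cause of these shifts was not tested. The count between the lines was 1528 and became 653 with the vector left out of the model. The Ampd3 line difference passed in 7 of 7 alternatives (limma adjusted p between 0.0055 and 0.0322). With the filter at the 50th percentile 3 members, not 1, differed between the lines, while Xdh and Nt5e were not tested. The count over all genes was 1939 there, out of fewer tested genes, so the background share was larger too. None of the 9 members apart from Gda passed the vector comparison under any alternative run. Other scalings moved the median change of all genes by at most 0.027. Depth has no direct measure on arrays. Gda, Xdh and Nt5e had arrays below the filter level, which limits the precision of their changes.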
